A study of Mus musculus with 8 samples.

Results

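Transcription factors of the heart fields and the epicardium were followed in aortic smooth muscle cells with and without *Hint1*, which encodes the nucleotide-binding protein HINT1. They were the T-box factors *Tbx2*, *Tbx3*, *Tbx5*, *Tbx18* and *Tbx20*, the zinc finger factors *Gata4*, *Gata5* and *Gata6*, the basic helix-loop-helix factor *Hand2* and the LIM-homeodomain factor *Isl1*. They were chosen by gene symbol for their place in heart development, and all 10 are among the 18533 symbols of the RNA-Seq counts. The cells were mouse aortic smooth muscle cells (MASMCs), grown from aortas of male mice aged 4 to 6 weeks after the adventitia and endothelium had been taken off. One group came from WT mice (n = 4) and the other from *Hint1*-/- mice (n = 4), which lack *Hint1* by their label. All 8 cultures received the growth factor PDGF-BB at 20 ng/mL for 24 hours, so no culture without PDGF-BB was compared here. Nothing in the sources used here says that the 4 samples of a genotype came from separate mice, and the p-values then measure only the spread between these samples.

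In the embryo, GATA4, GATA5 and GATA6 bind GATA motifs and, together with T-box factors and HAND2, switch on the genes of the beating muscle. ISL1 marks progenitors of the second heart field, which build the outflow tract and give rise to part of the smooth muscle at the base of the aorta. TBX18 marks the epicardium and the cells that leave it, TBX2 and TBX3 repress the working muscle program in the conduction system and the cushions, and TBX5 and TBX20 act in the chambers. GATA6 is also known as a factor of mature vascular smooth muscle.

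Sums of estimated counts per library ran from 20778077 to 20888041. *Hint1* itself had counts of 2272, 2336, 2364 and 2301 in WT and of 713, 748, 778 and 715 in *Hint1*-/- MASMCs, 32.1% of the WT level in CPM (counts scaled to library size). That much *Hint1* signal remained in the cultures labelled as knockout, and the sources used here do not say which bases were deleted. The smooth muscle markers (8 genes, among them *Acta2*, *Tagln* and *Myh11*) summed to 1360 to 1477 CPM in WT and to 1123 to 1213 CPM in *Hint1*-/- MASMCs. The genotypes were compared with edgeR's quasi-likelihood test on 13535 genes, and a gene was called at a Benjamini-Hochberg adjusted p under 0.05 over all of them together with a fold change over 1.5, the study's thresholds.

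*Gata4*, *Tbx20* and *Hand2* rose past both thresholds in *Hint1*-/- MASMCs, by 3.00-fold, 2.88-fold and 1.66-fold. *Gata6*, *Tbx18* and *Tbx2* passed the adjusted p with a smaller rise, of 1.19-fold to 1.34-fold. *Tbx3* and *Isl1* did not pass, and *Tbx5* and *Gata5* had too few counts for the test. Of all genes tested, 2.83% were called in either direction and 1.34% were called higher in *Hint1*-/- MASMCs. Of the 10 factors, 9 had the higher mean in *Hint1*-/- MASMCs, *Gata5* being the other. In 7 of the 8 tested factors the lowest *Hint1*-/- sample exceeded the highest WT sample, which held for 11.9% of the genes tested, but 3 of these, *Gata4*, *Tbx20* and *Isl1*, reached the test only through their *Hint1*-/- libraries. The untested *Tbx5* did not overlap either.

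**Figure D1:**
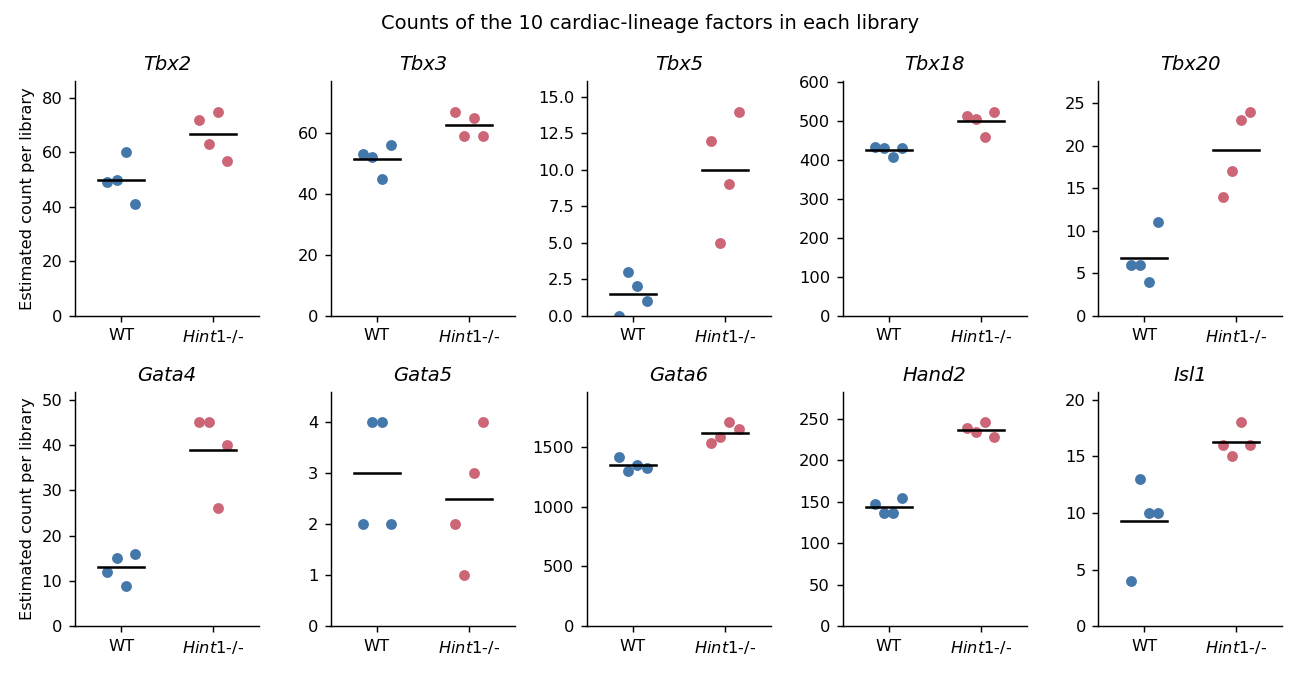
Estimated counts of the 10 factors in each library, with WT in blue, *Hint1*-/- in red and a line at the mean of each genotype (n = 4). The vertical axis of each panel starts at 0, and the points of the genotypes overlap in height for *Tbx2* and *Gata5*.

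*Gata4*, the GATA factor that opens the cardiac gene program, had estimated counts of 12, 15, 9 and 16 in the WT libraries and of 45, 45, 26 and 40 in the *Hint1*-/- libraries. The lowest *Hint1*-/- library was thus above the highest WT library. The mean of the 4 WT samples was 0.622 ± 0.151 CPM (SD) and that of the 4 *Hint1*-/- samples 1.88 ± 0.436 CPM (SD). This amounted to a log2 fold change of 1.59 with an SE of 0.243 (edgeR quasi-likelihood adjusted p = 9.16e-05), and the 95% interval of the fold change ran from 2.11 to 4.28. *Gata4* lies on the minus strand of chromosome 14 of mm10, from 63198922 to 63271692, and its exons shared no 50-base word with another annotated gene.

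*Tbx20*, a T-box factor of the chambers and valves, had counts of 6, 6, 4 and 11 in WT and of 14, 17, 23 and 24 in *Hint1*-/- MASMCs. The genotypes did not overlap, although WT replicate 4 came within 3 counts of the nearest *Hint1*-/- sample. The fit gave a log2 fold change of 1.52 with an SE of 0.321 (edgeR quasi-likelihood adjusted p = 0.00191) and a 95% interval of the fold change from 1.80 to 4.59. *Hand2*, a bHLH factor needed in the second heart field and the right ventricle, had counts of 147, 137, 137 and 155 in WT and of 239, 234, 246 and 228 in *Hint1*-/- MASMCs. Here the gap between the genotypes was wider than the range within either. *Hand2* averaged 6.89 ± 0.432 CPM over the 4 WT samples and 11.4 ± 0.357 CPM over the 4 *Hint1*-/- samples (means ± SD). It had a log2 fold change of 0.73 with an SE of 0.0741 (edgeR quasi-likelihood adjusted p = 7.96e-07). The lower end of its 95% interval, 1.49 to 1.84, was just under the fold limit of 1.5.

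*Isl1*, the marker of the second heart field, had counts of 4, 13, 10 and 10 in WT and of 16, 15, 18 and 16 in *Hint1*-/- MASMCs. The samples did not overlap, but WT replicates ranged over more than 3-fold. The fitted fold change of 1.76 (95% interval 1.14 to 2.72) had an adjusted p of 0.0608 by edgeR's test and was not called. The adjusted p was 0.0361 without WT replicate 2, at a log2 fold change of 1.02, and 0.183 without WT replicate 1, the library with the lowest count, at a log2 fold change of 0.57.

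The bases before the transcription start are printed for *Hand2*, *Tbx20* and *Isl1*, as 3 factors with the larger fold changes, and for *Myl7*, the atrial myosin light chain that had no count in any WT library. They come from RefSeq on GRCm38.p6 (the mm10 build) and run 5′ to 3′ on the strand of the gene, over the 250 bases that end at the start. They lie at chr8:57320733-57320982 (plus strand) for *Hand2*, chr9:24774304-24774553 (minus strand) for *Tbx20*, chr13:116309689-116309938 (minus strand) for *Isl1* and chr11:5898783-5899032 (minus strand) for *Myl7*. Capitals mark a GATA site, a T-box core or a HAND E-box on either strand.
Hand2: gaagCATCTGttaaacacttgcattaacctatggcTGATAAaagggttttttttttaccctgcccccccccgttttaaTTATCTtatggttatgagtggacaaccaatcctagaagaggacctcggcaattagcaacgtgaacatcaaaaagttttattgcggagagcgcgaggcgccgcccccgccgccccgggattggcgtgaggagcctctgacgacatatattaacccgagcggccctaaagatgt
Tbx20: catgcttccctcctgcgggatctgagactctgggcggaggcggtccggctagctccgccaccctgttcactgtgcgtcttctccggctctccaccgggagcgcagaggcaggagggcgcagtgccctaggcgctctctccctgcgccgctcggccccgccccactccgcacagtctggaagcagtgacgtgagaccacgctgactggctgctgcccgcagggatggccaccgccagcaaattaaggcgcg
Isl1: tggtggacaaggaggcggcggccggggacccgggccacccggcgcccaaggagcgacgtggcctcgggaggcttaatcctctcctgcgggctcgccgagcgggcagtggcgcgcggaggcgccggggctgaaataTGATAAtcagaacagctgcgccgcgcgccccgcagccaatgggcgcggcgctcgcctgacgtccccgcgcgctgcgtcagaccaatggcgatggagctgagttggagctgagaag
Myl7: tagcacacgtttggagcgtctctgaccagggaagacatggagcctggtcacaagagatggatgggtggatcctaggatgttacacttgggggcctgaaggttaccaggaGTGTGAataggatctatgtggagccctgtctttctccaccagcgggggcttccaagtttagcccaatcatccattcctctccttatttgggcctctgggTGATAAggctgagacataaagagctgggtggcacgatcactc
The GATA site was searched as AGATAA or in the spelling AGATAG, and equally as TGATAA or in the spelling TGATAG. The T-box core was searched as GTGTGA and the HAND E-box as CATCTG. Such words can overlap at their ends, but none of the matches given here did. The window searched was 300 bases long, from 250 before to 50 after the start.

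*Hand2* held 2 GATA sites, at −215 and −172 from the start, and a HAND E-box at −246. *Isl1* held 2 GATA sites, of which the one at −115 is shown and the other began 10 bases after the start. *Myl7* held a T-box core at −141 and a GATA site at −42. Of the other sarcomere genes searched, *Myh6* held a GATA site at −235. *Tnnt2* held a GATA site at −166 in a promoter and no word in its other promoter. *Myh7* and *Actc1* held none of the 3 words in any promoter searched. Neither *Tbx20* nor *Gata5* held any of the 3 words, and *Tbx18* held a HAND E-box at −168. Of 32851 promoters of this length in the RefSeq table, 29.8% held a GATA site, 14.5% a T-box core and 17.2% a HAND E-box, and the matches are given as a description of the letters only. The table matched 5 of the 10 factors, and *Tbx2*, *Tbx3*, *Tbx5*, *Gata4* and *Gata6* had no entry.

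The fold changes of the 8 tested factors ran from 1.19 for *Tbx18* to 3.00 for *Gata4*, and all 8 were above 1. Their median log2 fold change was 0.58, beside a median of 0.000306 over all genes tested. Since 3 of them passed the filter on low counts only through their *Hint1*-/- libraries, the count of tested factors that moved up is no support for a common direction.

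**Figure D2:**
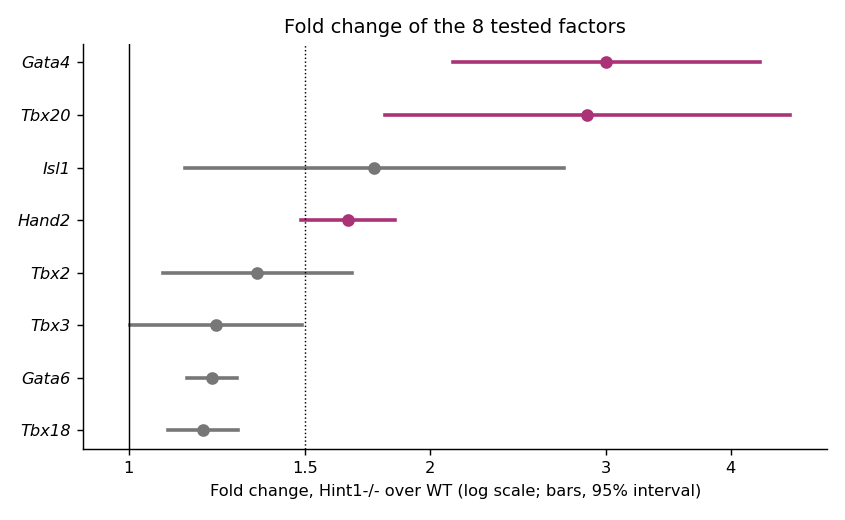
Fold change (*Hint1*-/- over WT, log axis) of the 8 tested factors, as points with 95% intervals, in purple where called at both thresholds. The dotted line marks the fold limit of 1.5, and the intervals of *Gata4* and *Tbx20* lie wholly above it.

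*Gata6*, the most abundant of the 10, had counts of 1414, 1301, 1346 and 1326 in WT and of 1535, 1585, 1705 and 1650 in *Hint1*-/- MASMCs. The samples did not overlap, and the fitted *Hint1*-/- level was 21.1% above WT. The log2 fold change of 0.28 (SE 0.0400) had an adjusted p of 5.04e-05 by edgeR's test, and its 95% interval, 1.14-fold to 1.28-fold, lay wholly under the fold limit. *Tbx18*, the epicardial T-box factor, had counts of 433, 431, 406 and 429 in WT and of 513, 505, 459 and 523 in *Hint1*-/- MASMCs. Again no sample crossed, with *Hint1*-/- replicate 3 the closest to WT. The fitted *Hint1*-/- level of *Tbx18* was 18.6% above WT (edgeR quasi-likelihood adjusted p = 0.00335). The 95% intervals of *Gata4* and *Gata6*, 2.11 to 4.28 and 1.14 to 1.28, did not overlap. *Gata4* reached the test only through its *Hint1*-/- libraries, so this gap is no support for a difference between these factors.

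The repressors *Tbx2* and *Tbx3* had differences under the fold limit. *Tbx2* had counts of 49, 50, 60 and 41 in WT and of 72, 63, 75 and 57 in *Hint1*-/- MASMCs. WT replicate 3 was above *Hint1*-/- replicate 4, and the fit gave a log2 fold change of 0.43 with an SE of 0.150 (edgeR quasi-likelihood adjusted p = 0.0494). That adjusted p lay at the threshold and ran from 0.0310 to 0.138 over the alternatives tried, above 0.05 without WT replicate 1, 2 or 4 and without *Hint1*-/- replicate 1, 2 or 3. It was also above the threshold with DESeq2 (adjusted p = 0.103) and with upper-quartile factors in edgeR (adjusted p = 0.0567). *Tbx3* had counts of 53, 52, 45 and 56 in WT and of 67, 59, 65 and 59 in *Hint1*-/- MASMCs, with no overlap. Its log2 fold change of 0.29 (SE 0.136) did not pass (edgeR quasi-likelihood adjusted p = 0.145), and its 95% interval ran from 1.00-fold to 1.49-fold.

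*Tbx5* and *Gata5* stayed under the filter on low counts. *Tbx5*, a chamber and limb factor, had counts of 0, 3, 2 and 1 in WT and of 12, 5, 9 and 14 in *Hint1*-/- MASMCs after rounding. The genotypes did not overlap, and a 2-sided exact permutation test gave p = 0.0286, the lowest value possible over the 70 assignments of the samples. The pooled 40 against 6 counts gave a ratio of 6.67, with an exact 95% interval for counting error of 2.81 to 19.2. *Gata5*, an endocardial GATA factor, had counts of 2, 4, 4 and 2 in WT and of 2, 1, 3 and 4 in *Hint1*-/- MASMCs. The WT samples lay within the range of the *Hint1*-/- samples, and the ratio of 10 to 12 pooled counts was 0.833 (exact 95% interval 0.323 to 2.11, 2-sided exact permutation p = 0.743). That interval holds a 2-fold difference in either direction, so at this depth neither was excluded for *Gata5*.

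Levels of the 10 factors were then compared with each other per length, as CPM per kilobase of annotated exon. The length joins all annotated exons of a gene and was longest for *Tbx20*, at 9566 bases. *Gata6* stood at 19.9 CPM per kb in WT and 24.1 in *Hint1*-/- MASMCs, and *Tbx18* at 4.34 and 5.15. *Hand2* followed at 2.93 in WT and 4.85 in *Hint1*-/- MASMCs, where its range met that of *Tbx18*, which it did not in WT. The next levels in WT were 0.660 for *Tbx2*, 0.473 for *Tbx3*, 0.176 for *Isl1* and 0.171 CPM per kb for *Gata4*, the last pair overlapping between samples. *Gata5*, *Tbx20* and *Tbx5* lay lowest in WT, at 0.0438, 0.0338 and 0.0182 CPM per kb, with overlapping ranges. In *Hint1*-/- MASMCs *Tbx5* reached 0.122 and *Tbx20* 0.0982 CPM per kb, both above *Gata5* at 0.0367, and *Gata4* reached 0.516, which overlapped with *Tbx3* at 0.579 and with *Isl1* at 0.311. The place of *Tbx20* depends on the length used. In CPM alone its mean was above that of *Gata5* in WT (0.323 and 0.143). It was also above that of *Tbx5* in *Hint1*-/- MASMCs (0.940 and 0.482).

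**Figure D3:**
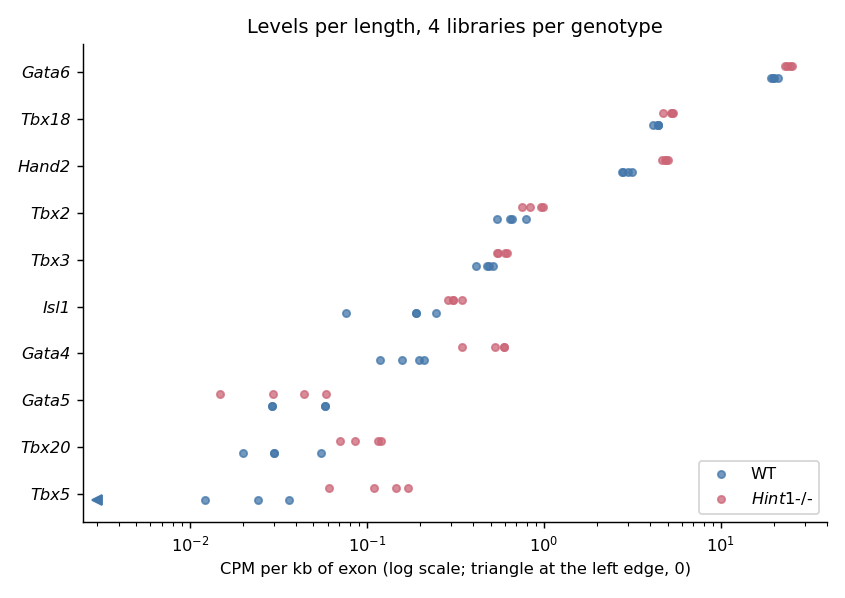
Level of each factor per length in each library (CPM per kilobase of exon, log axis), with WT in blue and *Hint1*-/- in red. The factors are ordered by their WT mean, *Gata6* is the highest in all 8 libraries, and the triangle at the left edge stands for the WT library without a *Tbx5* count.

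*Gata6* made up 69.3% of the summed level of the 10 factors in WT and 65.8% in *Hint1*-/- MASMCs, while the share of *Hand2* went from 10.2% to 13.2% and that of *Tbx18* from 15.1% to 14.0%. Ratios between factors within a library do not depend on library size and were tested with 2-sided exact permutation tests, adjusted over the 6 ratios. *Gata4* stood at 0.594% to 1.07% of the *Gata6* level per length in WT and at 1.35% to 2.60% in *Hint1*-/- MASMCs (exact permutation p = 0.0286, adjusted p = 0.0429). The ratio of the rare *Gata4* to its abundant paralog *Gata6* was thus above the WT range in 4 of 4 *Hint1*-/- samples. *Tbx20* stood at 0.482% to 1.25% of *Tbx18* in WT and at 1.34% to 2.45% in *Hint1*-/- MASMCs, *Tbx5* at 0% to 0.826% and 1.18% to 3.18% of *Tbx18*, and *Hand2* at 14.0% to 16.1% and 19.0% to 21.4% of *Gata6*, each with the same p. *Gata5* against *Gata6* did not pass (adjusted exact permutation p = 0.309), nor did *Tbx2* against *Tbx3* (adjusted exact permutation p = 0.629). The exact permutation p of 0.0286 is the lowest value possible over the 70 assignments of the samples. All these ratios reuse counts already compared above, and *Gata4* and *Tbx20* reached the test only through their *Hint1*-/- libraries. The ratios that passed are therefore no further support for those differences.

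By their annotated positions on mm10, *Gata6* lies at 18:11052064-11085635 and *Tbx18* at 9:87702800-87731260. *Tbx2* lies at 11:85832551-85841948, *Isl1* at 13:116298281-116309689 and *Gata5* at 2:180325133-180334699. *Tbx3* and *Tbx5* are neighbours on chromosome 5, at 119670669-119684724 and 119832668-119885219, *Tbx20* lies at 9:24718138-24774303 and *Hand2* at 8:57320983-57324633. Of the 10 factors, 8 have an annotated gene that starts within 5 kb of their own start, and none of these neighbours is in the count files. *Hand2os1* starts 3250 bases from *Hand2* and shares 363 of the 2302 different 50-base words of its exons (15.8%). *Tbx18* shares 18.3% of its words with other genes, mostly *D030062O11Rik*, and *Gata5* shares 5.05% with *Gata5os*. Whether the counting used strand is not given in the sources used here, so reads of *Hand2*, *Tbx18* and *Gata5* cannot be told apart from those of these partners over the shared stretch. For the other 7 factors the shared part was 1.01% or less.

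The cardiac transcripts that accompanied these factors were concentrated in a few sarcomere genes, listed with knowledge of earlier results from these data. *Myh6*, the alpha myosin heavy chain of heart muscle, had counts of 3, 0, 0 and 1 in WT and of 54, 58, 58 and 32 in *Hint1*-/- MASMCs, a ratio of 50.5 over the pooled counts (exact 95% interval for counting error 19.4 to 187). *Myl7* had no count in WT and 28, 16, 34 and 13 in *Hint1*-/- MASMCs, at least 30.3-fold higher over a floor of 3 counts per group. *Myh7*, the slow myosin heavy chain, had a ratio of 32.3 (12.3 to 120), and reads of *Myh6* and *Myh7* may be divided between these near-identical genes. *Tnnt2*, cardiac troponin T, rose by 0.76 on the log2 scale (edgeR quasi-likelihood adjusted p = 0.00600).

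Of 32 sarcomere and cardiomyocyte genes in the files, 13 were tested and 4 were called, each with the higher level in *Hint1*-/- MASMCs. Of these 4, *Myh6*, *Myh7* and *Myl7* had at most 3 counts in a WT library. They reached the test only through their *Hint1*-/- libraries, so their shared direction is no support for a common rise. The median log2 fold change of the 13 tested genes was 0.26, the same with *Myl7* at its bound. The 3 most abundant were *Tpm1*, at a log2 fold change of −0.35 (edgeR quasi-likelihood adjusted p = 4.36e-07), *Ankrd1* at 0.26 (adjusted p = 1.35e-05 from the same test) and *Atp2a2* at 0.04. The other 19 genes had too few counts for the test, and 11 of them had more pooled counts in *Hint1*-/- MASMCs, 7 had fewer and 1 had as many. Of these, chosen after their values were seen, the cardiac actin *Actc1* went from 2 pooled counts to 52 (ratio 26.0, exact 95% interval for counting error 6.85 to 220). The myosin light chain *Myl3* went from 0 to 16 and the Z-disc gene *Actn2* from 12 to 27 (ratio 2.25, 1.10 to 4.88). *Nppa*, a classic target of GATA4 and TBX5, had 19 counts in WT and 11 in *Hint1*-/- MASMCs, and the ventricular *Myl2* had 7 in each.

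Within the 4 *Hint1*-/- libraries only some of the factors were ranked like sarcomere genes. *Hand2* and *Tbx2* had the order of *Myl7* and *Actc1*, highest in replicate 3 and lowest in replicate 4, while other factors differed. *Gata4* was lowest in replicate 3, where *Myl7* was highest, at 34 counts, and *Tbx20* and *Tbx5* were highest in replicate 4, where *Myl7* and *Myh6* were lowest, at 13 and 32 counts. With 4 libraries of a genotype these orders are given as a description.

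No further T-box, GATA or HAND gene was called. Of 15 in the files, 6 were tested, 2 had an unadjusted p under 0.05, and 0 were called by edgeR's quasi-likelihood test, by DESeq2 or by limma-voom. *Tbx1*, a factor of the outflow tract, had 60 to 69 counts in WT and 40 to 46 in *Hint1*-/- MASMCs, a fall by 0.58 on the log2 scale (edgeR quasi-likelihood adjusted p = 0.00459) that stayed inside the fold limit. *Tbx15* stood at a log2 fold change of −0.13 (adjusted p = 0.231) and the T-box and bHLH protein gene *Mga* at 0.11 (adjusted p = 0.0958), both by edgeR's quasi-likelihood test. The median over the 6 was −0.13.

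Of 35 cofactors and other heart-field factors in the files, 25 were tested, 15 had an unadjusted p under 0.05, and 0 were called at both thresholds by edgeR's quasi-likelihood test, by DESeq2 or by limma-voom. Of the 25, 9 passed the adjusted p of edgeR, each with the higher level in *Hint1*-/- MASMCs, beside 11.2% of all genes tested. The 3 most abundant, *Mef2d*, *Tead1* and *Ldb1*, had log2 fold changes of 0.02, 0.09 and −0.04, and the median was 0.16. Of genes chosen after their values were seen, *Zfpm2*, which encodes the GATA partner FOG2, had 1271 to 1330 counts in WT and 1698 to 1840 in *Hint1*-/- MASMCs. Its log2 fold change of 0.46 (edgeR quasi-likelihood adjusted p = 2.49e-08) was larger than that of *Gata6*. *Nkx2-5*, the homeobox partner of GATA4 and TBX5, had 0 counts in WT and 4 in *Hint1*-/- MASMCs, of which 3 were in 1 library. *Myocd*, the serum response factor coactivator, had 47 pooled counts in WT and 31 in *Hint1*-/- MASMCs.

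Of 20 epicardial and mesothelial genes, 8 were tested, 2 were called, each higher in *Hint1*-/- MASMCs, and the median log2 fold change was 0.31. *Tcf21*, a bHLH factor of epicardium-derived fibroblasts, had 9 to 19 counts in WT and 28 to 44 in *Hint1*-/- MASMCs, a log2 fold change of 1.20 (edgeR quasi-likelihood adjusted p = 0.00132). *Krt19*, a keratin of mesothelium, had 85 to 106 and 134 to 196 counts (log2 fold change 0.84, adjusted p = 4.21e-05 from the same test). Like *Gata4*, *Tcf21* reached the test only through its *Hint1*-/- libraries, so the shared direction of these called genes is no support for a common rise. The abundant *Aldh1a2*, which makes retinoic acid, was higher by 0.37 on the log2 scale (adjusted p = 1.61e-07), *Sema3d* by 0.46 (adjusted p = 1.01e-05), and *Aldh1a1* stood at −0.04, all by edgeR's quasi-likelihood test. The defining markers *Wt1* and *Msln*, chosen after their values were seen, had 3 and 4 pooled counts in WT and 3 of each in *Hint1*-/- MASMCs.

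Of 16 secreted signals tied to heart-field factors, 11 were tested, with 1 called in each direction and a median log2 fold change of 0.31. *Fgf10*, a growth factor of the second heart field, had 69 to 98 counts in WT and 430 to 494 in *Hint1*-/- MASMCs, a log2 fold change of 2.41 (edgeR quasi-likelihood adjusted p = 2.88e-13). *Wnt2*, a ligand of cardiac progenitors, had 88 to 95 and 34 to 56 counts, a fall by 1.01 on the log2 scale (adjusted p = 3.52e-05 from the same test). The abundant *Slit2* was higher by 0.31 (edgeR quasi-likelihood adjusted p = 2.46e-05), while *Slit3* stood at −0.04 and *Tgfb2* at 0.03.

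**Figure D4:**
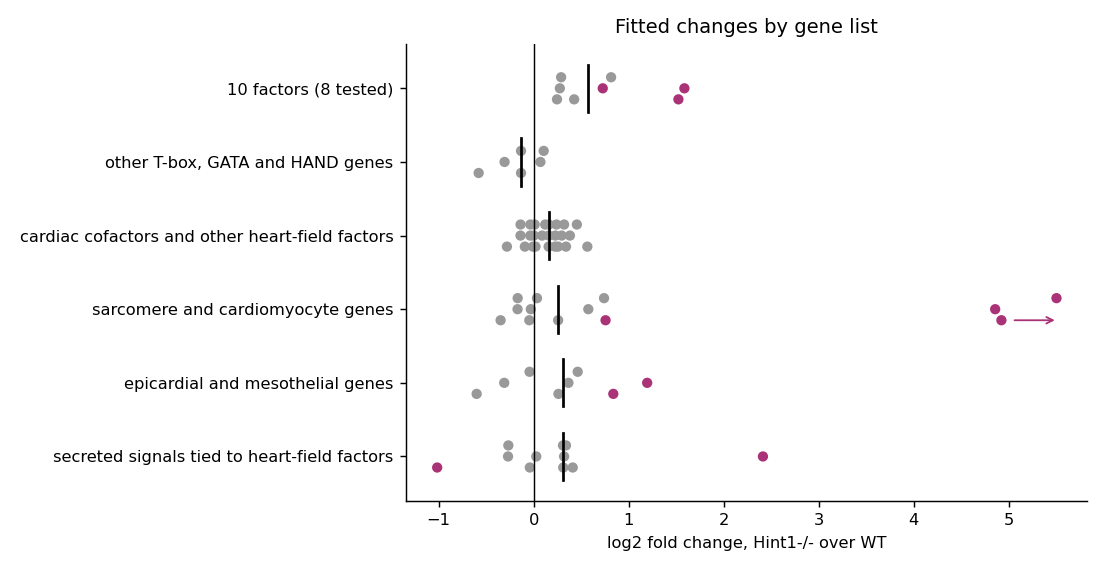
Log2 fold change (*Hint1*-/- over WT) of the tested genes of the 10 factors and of 5 gene lists, in purple where called at both thresholds, with a black line at the median of each list. *Myl7* is drawn at its lower bound with an arrow, since it had no count in WT, and apart from *Myl7*, *Myh6* and *Myh7* the points lie between −1.01 and 2.41.

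Markers of other cells were read beside these results, since in bulk RNA fewer cells of a type and less RNA per cell cannot be told apart. Cardiac muscle markers (8 genes) summed to 0.767 to 1.05 CPM in WT and to 3.37 to 5.87 CPM in *Hint1*-/- MASMCs. *Myh6* and *Myl7* were called, and *Tnni3*, cardiac troponin I, had 6 to 15 and 14 to 23 counts (edgeR quasi-likelihood adjusted p = 0.0820). Most of this rise lay in *Myh6* (mean 0.0479 CPM in WT and 2.43 CPM in *Hint1*-/- MASMCs) and *Myl7* (0 and 1.10 CPM). Both reached the test only through their *Hint1*-/- libraries. Of the other markers, *Myl3* went from 0 to 16 pooled counts, *Nppa* from 19 to 11, and *Myl2* had 7 in each genotype. Epicardial and mesothelial markers (8 genes) summed to 6.07 to 7.00 and 7.64 to 11.0 CPM, with *Krt19* called higher. Without *Krt19* the other 7 summed to 1.52 to 2.06 CPM in WT and to 1.01 to 1.74 CPM in *Hint1*-/- MASMCs, so the rise of this sum lay in *Krt19*. *Upk3b*, a mesothelial uroplakin, had 20 to 22 counts in WT and 11 to 25 in *Hint1*-/- MASMCs, and *Upk1b*, chosen after its values were seen, had 42 and 17 pooled counts (ratio 0.405, exact 95% interval 0.216 to 0.726). The part of these cells in the rise of *Gata4*, *Tbx20* and *Hand2* was not tested. No marker of these lists was at 0 in all 8 libraries.

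Schwann cell markers (6 genes) summed to 42.7 to 48.2 CPM in WT and to 10.1 to 11.5 CPM in *Hint1*-/- MASMCs, with 4 called lower, *Sox10*, *Ngfr*, *Foxd3* and *Erbb3*. Among smooth muscle markers, *Myh11*, *Cnn1* and *Des* were called lower, with *Myh11* at 406 to 456 counts in WT and 136 to 152 in *Hint1*-/- MASMCs. *Acta2* stood at a log2 fold change of −0.51 and *Tagln* at −0.11. Of the 8 smooth muscle markers, 6 passed the adjusted p with a lower level and 1, *Smtn*, with a higher level. *Smtn*, chosen after its values were seen, had 3073 to 3456 counts in WT and 3747 to 3953 in *Hint1*-/- MASMCs. Its log2 fold change was 0.25 (edgeR quasi-likelihood adjusted p = 9.00e-05). Fibroblast markers (8 genes) summed to 5734 to 6350 CPM and 6260 to 6663 CPM, with *Dcn* and *Lum* called higher, *Dpt* called lower and the abundant *Col1a1* at a log2 fold change of −0.17. Macrophage markers, led by *Lyz2* and *Cd14*, summed to 2263 to 2621 CPM in WT and to 1849 to 1968 CPM in *Hint1*-/- MASMCs. Endothelial markers, led by *Cdh5* and *Emcn*, summed to 5.58 to 8.13 and 5.24 to 7.68 CPM. Skeletal muscle markers, led by *Acta1* and *Tnnt3*, summed to 0.524 to 1.05 and 0.435 to 1.21 CPM, and fat cell markers, led by *Fabp4* and *Pparg*, to 48.8 to 55.6 and 51.5 to 58.9 CPM. The genotypes overlapped in each of these 3 sums. The part of these cells in the levels of the 10 factors was not tested.

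*Gata4*, the called factor with the largest change, was compared with 12780 genes of at least 20 mean counts for likeness over the 8 samples. The nearest patterns were those of *Kctd9* (Pearson r = 0.983), *Pcdhb14* (r = 0.982) and *Cenpf* (r = 0.980). Among the other factors, *Tbx18* came closest (r = 0.972, rank 9 of the genes compared), before *Hand2* (0.920), *Tbx3* (0.842), *Gata6* (0.782) and *Tbx2* (0.556). The 8 samples form a cluster for each genotype, so these values mostly restate the difference between genotypes.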

How the data were processed

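RNA-Seq was measured in 4 WT and 4 *Hint1*-/- MASMC samples, grouped by the genotype in their titles. The authors deposited expected counts (estimated counts per gene symbol, not normalized) made from BGISEQ-500 reads of 50 bases. The submitters' processing notes list Bowtie2, RSEM 1.3.1, DESeq2 1.4.5 and mm10, while the study's methods name HISAT2 as the aligner, and the gene annotation is not given in the sources used here. Between 67.3% and 67.8% of the deposited values per sample were whole numbers, since RSEM divides a read that fits several genes. Molecular identifiers are not described, so intervals cover counting error only.

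Counts were rounded, filtered with filterByExpr (13535 of 18533 symbols kept), scaled by TMM (factors 0.993 to 1.01) and fitted with glmQLFit and glmQLFTest of edgeR 4.0.16 in R 4.3.3, with genotype as the only term. An SE is the log2 fold change over the root of F. The fit was tested on simulated data. Limma 3.58.1 (voom) and DESeq2 1.42.0 served as alternatives, beside other scalings, filters, decimals kept, a replicate block and each sample left out. Exons, positions and neighbours came from GENCODE M21 (mm10), matched by symbol, and promoters from RefSeq.

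The factors, lists and tests were chosen with earlier results of these data known. Named were all 10 factors, from each pathway list every called gene and the 3 with the most counts, from each marker list every called gene and the 2 with the most counts, the 3 genes most like the called factor of largest change, and genes that start within 5 kb of a factor. Other names were chosen after their values were seen. Some markers of 1 list are not reported here and were left out of its sum.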

Additional observations from a re-analysis of the deposited data

Results flagged for a closer look

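In groups of 4 samples, 112 groups of named genes were examined on the log2(CPM + 0.1) scale for a sample far from the rest, by Dixon's ratio of its gap to the group's whole range, against its 95% critical value. It passed that value in 5 groups, where chance would give 5.60 at 1 in 20. Among the 10 factors, *Tbx18* in WT was the only one, with replicate 3 lowest at a ratio of 0.835.

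In *Hint1*-/- MASMCs, *Tead1* was highest in replicate 4 (0.853) and *Myh6* lowest in replicate 4 (0.876). In WT, *Atp2a2* was lowest in replicate 3 (0.881) and *Acta2* lowest in replicate 2 (0.837).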

How the results depend on the processing

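*Hand2* was called under every alternative tried, and *Gata4* and *Tbx20* under each one in which they were tested. The 3 called factors became 1 when at least 10 counts were required in every sample, which removes *Gata4* and *Tbx20* by construction, and were 3 to 4 with any 1 sample left out. Without a filter on low counts *Tbx5* was called too, which made 4. With limma-voom the count was also 4, with *Isl1* called at a log2 fold change of 0.90 (adjusted p = 0.0418), and *Isl1* was likewise called without WT replicate 2. Factors with an adjusted p under 0.05 numbered 6, and 4 to 7 over the alternatives, with 5 to 6 when 1 sample was left out. Over all genes, 383 were called, 350 to 390 with 1 sample left out, 336 with DESeq2, 310 with at least 10 counts in every sample, 442 without a filter and 2907 with no limit on the fold change. No direction of a factor was reversed in these alternatives. Replicate numbers did not pair the samples (correlations of deviations −0.0450, 0.0814, 0.00875 and 0.0230), and with a replicate block 3 factors and 382 genes were called. Depth limits *Tbx5*, *Gata5*, *Tbx20* and *Isl1*, which had at most 24 counts in a library. It also limits the WT level of *Gata4*, which had 9 to 16 counts in a WT library.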
